A study of Caenorhabditis elegans with 7 samples.

Results

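The respiratory chain of C. elegans is built from subunits encoded in 2 genomes, and the genes described here are those of the mitochondrial genome and the nuclear genes named for respiratory chain proteins. They were chosen as every row of the deposited gene table placed on MtDNA, together with every row whose symbol starts with nuo, cox, atp, ucr, cyc, isp or gas and a number. The rule gave 60 of the 46778 genes. Of these, 36 are on MtDNA, as 12 protein-coding genes, 2 ribosomal RNAs and 22 transfer RNAs, and 24 are nuclear. A further 11 nuclear genes are listed under another name although their current symbol fits the rule, such as cco-1, now cox-5B. These 11 genes were not counted as members and serve here for comparison.

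RNAseq was carried out on whole animals of N2, the standard laboratory wild type, collected at the L4 larval stage on OP50 bacteria after synchronization as L1 larvae. The 3 WT libraries came from unselected animals. The 4 WT Late libraries came from animals of the same strain in which day 3 progeny had founded each next generation for at least 50 generations. The labels call all 7 biological replicates, but no source used here says that the WT Late replicates were separately selected lines, so the tests measure the spread between libraries.

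Complexes I, III and IV of the inner mitochondrial membrane pass electrons from NADH to oxygen and pump protons, and ATP synthase uses the returning protons to make ATP. The mitochondrial genome encodes core membrane subunits of each of these complexes, while the nuclear genome encodes the other subunits, cytochrome c and the proteins that assemble the complexes. Mitochondrial transcripts are made as long precursors that are cut into single RNAs, whereas the nuclear genes are transcribed from many promoters.

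Between 17553893 and 20961698 reads fell on genes in each library. The libraries differed in composition. WT Late replicate 3 stood apart, with 18490 genes at a read or more against 11069 to 16297 in the other 6 libraries, and with 13.2% of its reads on cytosolic ribosomal protein genes against 24.1% to 35.6%. WT Late replicate 2 had the fewest genes with a read. Counts, medians and fitted differences that moved with WT Late replicate 3 are therefore also given without it. Markers of muscle, intestine, germline, sperm, epidermis and neurons were all detected, as whole animals should give, with every one of the 10 muscle, 10 germline, 11 sperm, 8 epidermis and 8 neuron markers and all 9 intestine markers that the table lists read in some library. The muscle marker unc-22, the sperm markers spe-9 and spe-11 and the neuron marker unc-104 were at 0 in at least 1 library. In bulk RNA, fewer cells of a type and less RNA per cell cannot be told apart.

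MtDNA rows took a smaller share of the reads in 3 of the 4 WT Late libraries than in any WT library, and a larger share in WT Late replicate 3. In WT replicates 1 to 3 the share was 1.77%, 1.25% and 1.25% of all reads on genes. In WT Late replicates 1 to 4 it was 0.507%, 0.654%, 4.00% and 0.459%. The group means were 1.42% ± 0.299 for WT (SD, n = 3) and 1.41% ± 1.73 for WT Late (SD, n = 4), with a two-sided exact permutation p of 1.0 over the 35 possible label arrangements, where the smallest possible p is 0.0286. Without WT Late replicate 3 the WT Late mean was lower by 0.882 percentage points, with an exact p of 0.1, the smallest that 3 libraries against 3 can give. Counting error is small beside these differences, since the widest 95% Clopper-Pearson interval ran from 3.99% to 4.01%, in WT Late replicate 3. Such intervals cover counting error alone.

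The nuclear members showed the opposite order in that library. They took 1.19%, 1.08% and 1.26% of the reads in the WT libraries and 1.35%, 1.23%, 0.858% and 1.21% in WT Late replicates 1 to 4. Set against each other, MtDNA mRNAs had 1.48, 1.15 and 0.986 reads for each read on the nuclear members in WT. In WT Late they had 0.375, 0.529, 4.65 and 0.378. Replicates 1, 2 and 4 of WT Late thus lay below every WT library in this ratio and replicate 3 lay above. With ribosomal protein genes left out of the denominator, the MtDNA share was 2.52%, 1.70% and 1.64% in WT and 0.682%, 0.981%, 4.61% and 0.713% in WT Late, the same order between the groups.

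**Figure D1:**
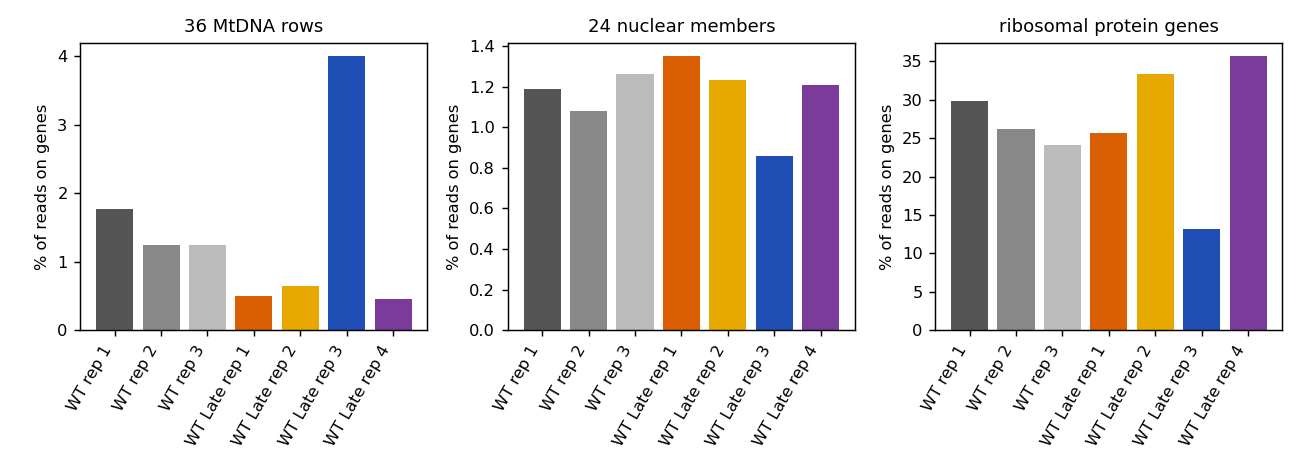
Bars give the percentage of all reads on genes in each of the 7 libraries that fell on the 36 MtDNA rows, the 24 nuclear members and the cytosolic ribosomal protein genes, each panel on its own axis from 0. WT Late replicate 3 has the tallest bar for MtDNA (4.00%) and the shortest for the nuclear members (0.858%) and ribosomal protein genes (13.2%).

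Levels below are rescaled FPKM. The deposited FPKM (reads per kilobase of gene, scaled to a library size) was divided by 1 median-of-ratios factor per library. That library size ran from 0.675 times the reads on genes in WT Late replicate 4 to 1.79 times in WT Late replicate 3. Levels and read shares can therefore order the libraries differently. The levels can be compared between genes because they are per length. Log2 fold changes are WT Late minus WT on the log2 of rescaled FPKM plus 0.5, a scale that understates changes of low genes. Across the 13194 genes tested with limma, 0.849% were called at a Benjamini-Hochberg adjusted p under 0.05, in either direction. None of the 12 MtDNA mRNAs, 2 MtDNA rRNAs and 24 nuclear members was among them (limma). At an unadjusted p under 0.05, limma gave 1 of the 12 MtDNA mRNAs, nduo-5, which was lower, as were 4.81% of all genes tested, and 0 of the nuclear members. With voom on the recovered reads the counts called were also 0, with 3 MtDNA mRNAs and 0 nuclear members at an unadjusted p under 0.05, beside 9.04% of all genes tested.

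The fitted difference was negative for all 12 MtDNA mRNAs, with a median of -0.93 on the log2 scale and a range from -4.67 to -0.06. The nuclear members were split, with 12 negative and 12 positive values, a median of 0.00 and a range from -0.85 to 0.59. The median over the 11 genes listed under other names was 0.08, and over all genes tested it was -0.13. Without WT Late replicate 3 the median was -1.24 for the MtDNA mRNAs, 0.53 for the nuclear members, 0.73 for the 11 genes under other names and -0.17 for all genes tested.

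The 12 MtDNA mRNAs share a molecule and a set of precursors and are not replicates of one another. They were read library by library. In WT Late replicate 1, 12 of the 12 lay below every WT library, where 37.4% of all genes tested did. In WT Late replicate 2 the count was 11, where 45.7% of all genes did. Both counts include ndfl-4, which was barely read, with 13, 7 and 1 reads in WT and 0 in these 2 libraries. In WT Late replicate 4 it was 9, beside 35.9%, and in WT Late replicate 3 it was 2, beside 31.2%. A single MtDNA mRNA lay above every WT library in WT Late replicate 3, which was ctc-1, and a single one in WT Late replicate 4, which was nduo-6. All 4 WT Late libraries lay below all WT libraries for 2 of the 12, ctc-2 and atp-6, beside 5.09% of all genes tested. Without WT Late replicate 3 this held for 8 of the 12, beside 18.3%.

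**Figure D2:**
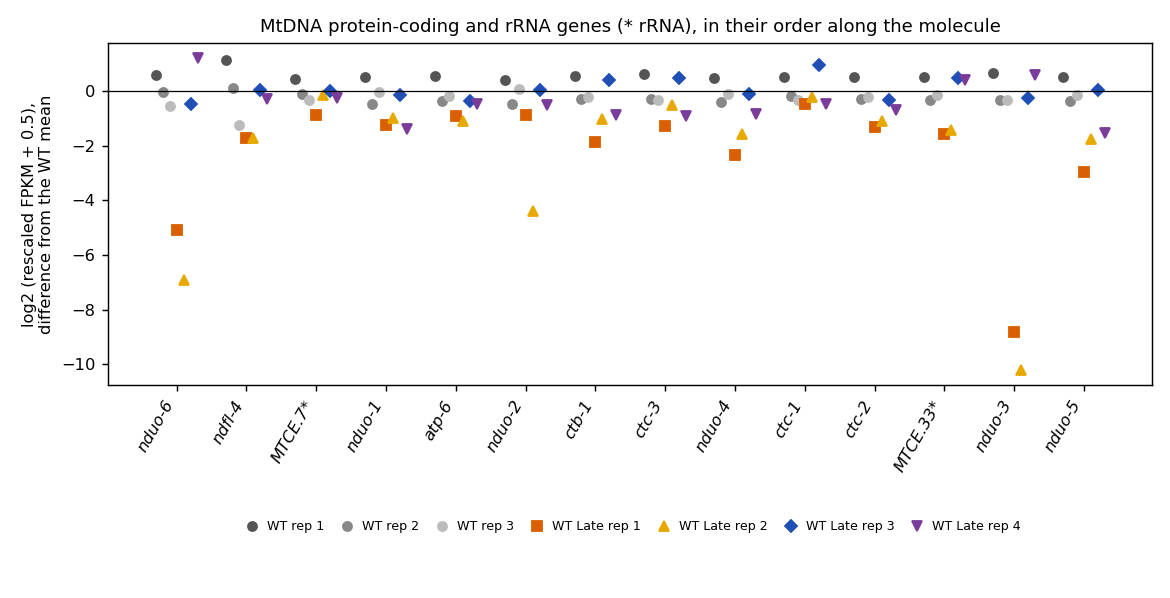
Each point is 1 library for 1 MtDNA gene, in the order of the genes along the molecule (asterisks mark the 2 rRNAs), as the difference from the WT mean on the log2 scale of rescaled FPKM plus 0.5. WT Late replicates 1 and 2 lie far below the other libraries for nduo-3 and nduo-6. On this scale WT Late replicate 3 lies within or near the WT points for most genes. As a share of reads, the MtDNA rows were higher in that library than in WT, at 4.00% against 1.25% to 1.77%.

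Complex I, which takes electrons from NADH, has 7 MtDNA subunits, nduo-1 to nduo-6 and ndfl-4, all in its membrane arm. Their log2 fold changes had a median of -1.43, or -1.92 without WT Late replicate 3. nduo-5 (WBGene00010967, MtDNA 11691 to 13272 on the plus strand) stood at 877, 474 and 549 rescaled FPKM in WT replicates 1 to 3. In WT Late replicates 1 to 4 it stood at 76.9, 179, 626 and 210. Replicates 1, 2 and 4 of WT Late were below the lowest WT library, and replicate 3 was inside the WT range. The log2 fold change was -1.56 ± 0.64 (SE, as for every log2 fold change here), with a limma adjusted p of 0.467. Without WT Late replicate 3 it was -2.098 ± 0.40, with a limma adjusted p of 0.0156.

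nduo-4 (WBGene00010963, MtDNA 6506 to 7808) had the same pattern, at 863, 467 and 575 rescaled FPKM in WT and 119, 207, 567 and 339 in WT Late. Its log2 fold change was -1.23 ± 0.57 (limma adjusted p = 0.572) and, without WT Late replicate 3, -1.60 ± 0.39 (limma adjusted p = 0.0419). nduo-4 and nduo-5 were the 2 MtDNA mRNAs called lower without that library, in a fit that called 2.23% of the 12640 genes tested as lower. nduo-1 (WBGene00010959), at 897, 444 and 616 rescaled FPKM in WT and 262, 317, 571 and 236 in WT Late, missed the threshold in that fit, with a limma adjusted p of 0.051.

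The libraries differed most for 2 short subunit genes, nduo-3 and nduo-6, and here WT Late replicate 4 did not follow replicates 1 and 2. nduo-3 (WBGene00010966, MtDNA 11356 to 11691, 336 bases) had 5668, 3615 and 3591 reads in WT. In WT Late it had 5, 0, 7142 and 3090 reads. In rescaled FPKM this was 933, 462 and 469 in WT and 0.792, 0, 489 and 887 in WT Late, where 0 reads in WT Late replicate 2 allow up to 3 reads, or 0.565 rescaled FPKM. WT Late replicates 3 and 4 thus lay inside the WT range and replicates 1 and 2 were nearly unread.

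nduo-6 (WBGene00010957, MtDNA 113 to 549, 437 bases) had 1123, 928 and 645 reads in WT and 19, 2, 1277 and 983 in WT Late. Its rescaled FPKM was 142, 91.2 and 64.8 in WT and 2.31, 0.290, 67.2 and 217 in WT Late. The log2 fold changes of both genes had wide errors, at -4.67 ± 2.19 for nduo-3 (limma adjusted p = 0.572) and -2.82 ± 1.50 for nduo-6 (limma adjusted p = 0.639), or -6.11 and -3.58 without WT Late replicate 3. So few reads were rare among genes that were well read in WT. Of the 2100 tested genes with at least 600 reads in every WT library, 2 had at most 20 reads in WT Late replicate 1 and 2 in WT Late replicate 2, and in both libraries these were nduo-3 and nduo-6. Those limits of 600 and 20 reads were chosen after the values were seen. Of these 2100 genes, 89 were no longer than nduo-6, and the part of gene length was not tested.

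Their neighbours on the molecule differed. nduo-3 and nduo-5 overlap by 1 base, and nduo-5 had 2285 and 4484 reads in WT Late replicates 1 and 2. nduo-6 overlaps ndfl-4 by 1 base, and ndfl-4, the smallest complex I subunit gene (WBGene00010958, 235 bases), was barely read anywhere, with 13, 7 and 1 reads in WT and 0, 0, 12 and 2 in WT Late, so no difference was detectable for it at this depth. nduo-2 (WBGene00010961, MtDNA 3389 to 4269) was lowest by far in WT Late replicate 2, with 137 reads there and 1389 to 8562 in the other 6 libraries. In rescaled FPKM it stood at 285, 156 and 227 in WT and 118, 9.84, 224 and 152 in WT Late, so WT Late replicates 1, 2 and 4 were below the WT range (log2 fold change -1.43 ± 0.85, limma adjusted p = 0.675).

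Complex III passes electrons to cytochrome c, and its MtDNA subunit is cytochrome b, encoded by ctb-1 (WBGene00000829, MtDNA 4504 to 5621). ctb-1 stood at 2568, 1450 and 1506 rescaled FPKM in WT and 492, 864, 2343 and 966 in WT Late, with a log2 fold change of -0.84 ± 0.71 (limma adjusted p = 0.781), or -1.26 without WT Late replicate 3. WT Late replicates 1, 2 and 4 were below the WT range and replicate 3 was inside it.

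Complex IV, which gives electrons to oxygen, has 3 MtDNA subunits. ctc-1 (WBGene00010964, MtDNA 7827 to 9428), the catalytic subunit, stood at 2584, 1573 and 1454 rescaled FPKM in WT and 1301, 1544, 3522 and 1284 in WT Late. This was the smallest difference of the 12 mRNAs, at -0.06 ± 0.72 on the log2 scale (limma adjusted p = 0.99), and its sign turned under quantile normalization, to 0.06. It was -0.40 without WT Late replicate 3. ctc-2 (WBGene00010965, MtDNA 9649 to 10348), which holds the copper site that receives electrons from cytochrome c, was the most abundant MtDNA mRNA in WT, at 4237, 2390 and 2516 rescaled FPKM. In WT Late it stood at 1175, 1363, 2315 and 1803, so that the groups did not overlap, with the closest values 2315 and 2390. Its log2 fold change was -0.87 ± 0.73 (limma adjusted p = 0.783), and the exact permutation p on log2 of rescaled FPKM plus 0.5 was 0.0571. ctc-3 (WBGene00010962, MtDNA 5678 to 6449), the remaining core subunit, stood at 3606, 1877 and 1846 in WT and 960, 1633, 3211 and 1221 in WT Late, with a log2 fold change of -0.56 ± 0.75, or -0.90 without WT Late replicate 3.

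In ATP synthase the MtDNA subunit is atp-6 (WBGene00010960, MtDNA 2634 to 3235), part of the proton channel, and it fits the rule by its place and by its symbol. It stood at 3807, 2034 and 2325 rescaled FPKM in WT and 1381, 1229, 2015 and 1863 in WT Late. The groups did not overlap, although 2015 and 2034 are close, and the log2 fold change was -0.72 ± 0.71 (limma adjusted p = 0.817).

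The mitochondrial rRNAs were read far less than the mRNAs. MTCE.7, the small-subunit rRNA, stood at 49.6, 33.4 and 28.8 rescaled FPKM in WT and 19.5, 32.5, 36.5 and 30.6 in WT Late (log2 fold change -0.32 ± 0.35). MTCE.33, the large-subunit rRNA, stood at 28.3, 15.6 and 17.6 in WT and 6.26, 6.98, 28.0 and 26.0 in WT Late (-0.54 ± 0.54, or -0.88 without WT Late replicate 3). Both groups overlapped for each rRNA. The sources used here do not say how rRNA was removed from the libraries. The tRNA rows, 52 to 62 bases long, were nearly unread, with 13 of the 22 at 0 in all libraries and at most 16 reads for any row in any library, and their 3 tested rows are not interpreted.

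Among themselves, the MtDNA mRNAs kept similar proportions in the 3 WT libraries. In WT Late, the proportions of 3 of the 12 genes did not overlap those in WT, and those of the other genes did. This measure does not depend on the scaling between libraries. The shares of the 12 genes add up to 100% within a library, so they are linked. ctc-1 held 21.8%, 23.8% and 20.9% of the MtDNA mRNA reads in WT. In WT Late it held 36.9%, 34.2%, 34.8% and 25.8%, so every WT Late library, replicate 3 included, was above every WT library. nduo-5 held 7.31%, 7.10% and 7.80% in WT and 2.16%, 3.92%, 6.12% and 4.17% in WT Late.

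nduo-4 held 5.93%, 5.75% and 6.73% in WT and 2.76%, 3.72%, 4.56% and 5.54% in WT Late. These 3 genes were the ones of 12 whose shares did not overlap between the groups, and the two-sided exact permutation p was 0.0571 for each, with no adjustment over the 12. Summed by complex, the 7 complex I genes held 20.7%, 19.7% and 22.8% in WT and 10.8%, 11.6%, 16.2% and 18.9% in WT Late. The 3 complex IV genes held 52.1%, 53.4% and 49.5% in WT and 64.7%, 64.8%, 60.2% and 53.5% in WT Late. Neither pair of groups overlapped, with an exact p of 0.0571 for each complex. For complex IV the closest WT and WT Late values were 53.4% and 53.5%. These sums contain ctc-1, nduo-4 and nduo-5, so they repeat part of the gene shares.

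WT Late replicate 4 differed from the other WT Late libraries in these shares. nduo-3 held 3.74% and nduo-6 1.19% of its MtDNA mRNA reads, while nduo-3 held 1.41% to 1.65% and nduo-6 0.254% to 0.377% in WT. ctb-1 held 15.1%, 15.3% and 15.1% in WT and 9.75%, 13.4%, 16.2% and 13.6% in WT Late. For this gene the WT libraries lay closer together than the WT Late libraries, on both sides of which WT Late values were found.

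**Figure D3:**
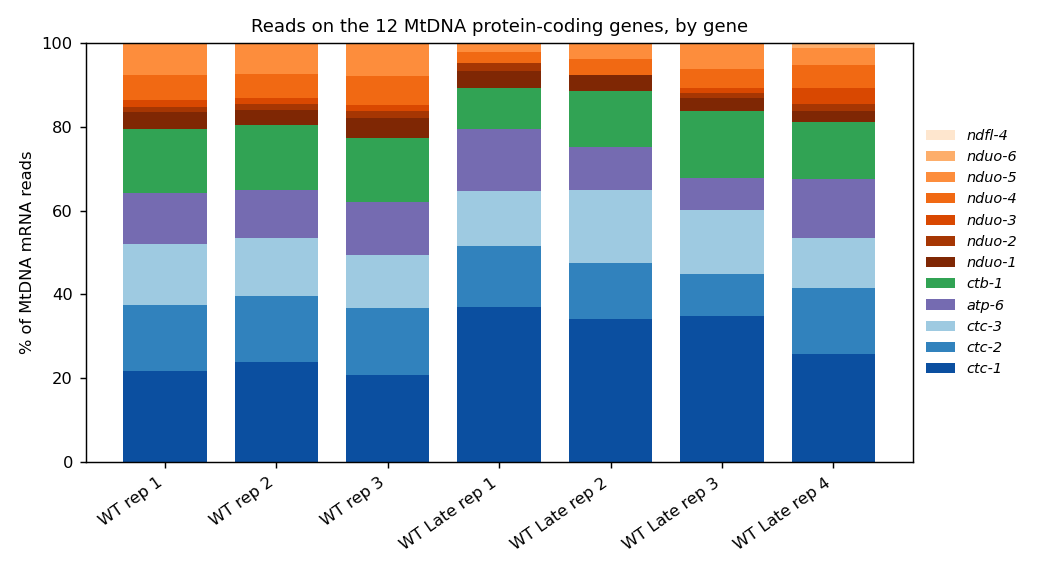
Stacked bars divide the MtDNA mRNA reads of each library among the 12 protein-coding genes, in percent, with complex IV genes in blue at the base, atp-6 in purple, ctb-1 in green and complex I genes in orange and brown at the top. The ctc-1 block reaches 25.8% to 36.9% in the 4 WT Late libraries and 20.9% to 23.8% in the 3 WT libraries.

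The nuclear members did not follow the MtDNA genes, library by library. The counts in this paragraph are on rescaled FPKM. Of the 24, 17 lay above every WT library in WT Late replicate 1, 13 in replicate 2 and 20 in replicate 4. Of all genes tested, 31.9%, 28.9% and 30.0% did. As a share of reads, the members stood at 1.23% and 1.21% in WT Late replicates 2 and 4, inside the WT range of 1.08% to 1.26%. WT Late replicate 1 was above that range, at 1.35%, and replicate 3 below it, at 0.858%. In WT Late replicate 3, 19 of the 24 lay below every WT library, where 31.2% of all genes did, and that library was the lowest of the 7 for 18 of the 24, beside 20.9% of all genes. Among the 17 members with a WT mean of at least 100 rescaled FPKM it was the lowest for 16, with no share computed for other genes at that level. Every cell type marker with such a WT mean was also lowest in WT Late replicate 3, among them mlc-2, asp-1, msp-78 and snb-1. The order in that library was thus not particular to the members, and the part of expression level was not tested. WT Late replicate 4 was the highest of the 7 for 15 of the 24. The share of all genes with replicate 4 highest was not computed, but it cannot exceed the 30.0% above every WT library there. The 11 genes listed under other names include the ATP synthase alpha subunit gene H28O16.1 and the complex IV subunit genes cco-1 and cco-2. For them WT Late replicate 3 was the lowest library for 8, beside 20.9% of all genes, and WT Late replicate 4 the highest for 8.

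The 4 WT Late libraries were all above the 3 WT libraries for 1 of the 24, nuo-4, beside 4.67% of all genes tested. Without WT Late replicate 3 this held for 12 of the 24 and for 5 of the 11 genes under other names, beside 14.2%. In that fit limma called 0 of the 24, with 9 at an unadjusted p under 0.05 and higher, as were 11.1% of the genes tested.

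**Figure D4:**
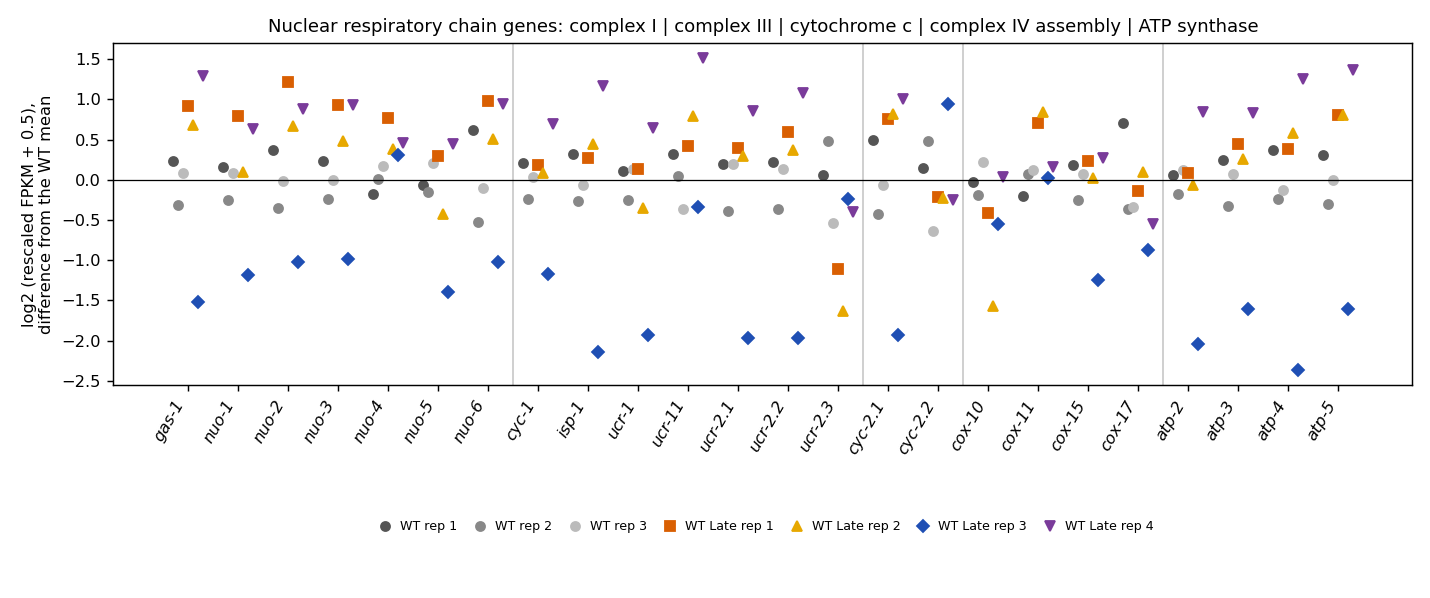
Each point is 1 library for 1 nuclear member, grouped by complex, as the difference from the WT mean on the log2 scale of rescaled FPKM plus 0.5. WT Late replicate 3 (diamonds) is the lowest point for 18 of the 24 genes, beside 20.9% of all genes tested. WT Late replicate 4 (inverted triangles) is the highest for 15, a count without a computed share over all genes.

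In complex I the 7 nuclear members had a median log2 fold change of 0.34, or 0.78 without WT Late replicate 3, against -1.43 and -1.92 for the 7 MtDNA subunits. In median difference from the WT mean, the nuclear subunits stood at 0.91, 0.49, -1.02 and 0.87 in WT Late replicates 1 to 4, while the MtDNA subunits stood at -2.36, -1.77, -0.12 and -0.51. nuo-4 (WBGene00019401, chromosome III 7156032 to 7158809), an accessory subunit gene, stood at 84.0, 96.0 and 107 rescaled FPKM in WT and 163, 124, 118 and 132 in WT Late. Its log2 fold change was 0.48 ± 0.34 (limma adjusted p = 0.74), with an exact permutation p on log2 of rescaled FPKM plus 0.5 of 0.0286, the smallest possible.

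nuo-2, which encodes a core subunit of the arm that reaches into the matrix, stood at 257, 155 and 197 rescaled FPKM in WT and 462, 315, 97.9 and 365 in WT Late (0.43 ± 0.55). gas-1, the 49 kDa core subunit gene whose mutants are short-lived and sensitive to oxygen, stood at 204, 140 and 185 in WT and 328, 280, 60.5 and 427 in WT Late (0.34 ± 0.61). For both genes WT Late replicates 1, 2 and 4 were above the WT range and replicate 3 was below it. nuo-6, an accessory subunit gene known from a long-lived mutant, stood at 628, 284 and 381 in WT and 803, 580, 201 and 782 in WT Late (0.35 ± 0.60), and nuo-1, the NADH-binding subunit gene, had a log2 fold change of 0.08 ± 0.53. The values without WT Late replicate 3 were 0.92 for nuo-2, 0.96 for gas-1, 0.81 for nuo-6 and 0.51 for nuo-1.

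In complex III, isp-1, the Rieske iron-sulfur protein gene, stood at 856, 570 and 653 rescaled FPKM in WT and 824, 927, 154 and 1538 in WT Late. The group means of 693 ± 147 (SD, n = 3) and 861 ± 567 (SD, n = 4) differed by less than the spread. The fitted log2 fold change, a difference between means of log2 values, ran against these means, at -0.07 ± 0.74 (limma adjusted p = 0.988), and was 0.63 without WT Late replicate 3. WT Late replicate 3 was the lowest library and replicate 4 the highest. The cytochrome c1 gene cyc-1 had a log2 fold change of -0.05 ± 0.50 and the core protein gene ucr-1 of -0.37 ± 0.57, which were 0.32 and 0.15 without WT Late replicate 3.

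The small subunit gene ucr-11 had the largest positive value of the 24, at 0.59 ± 0.49 (limma adjusted p = 0.776), or 0.90 without WT Late replicate 3. Its levels were 246, 203 and 153 in WT and 263, 341, 156 and 563 in WT Late. The 3 paralogs of the second core protein differed in level and in direction. ucr-2.1 stood at 165 to 247 rescaled FPKM in WT and ucr-2.2 at 121 to 181, with WT Late replicate 3 at 54.5 and 39.3, and their log2 fold changes were -0.10 ± 0.62 and 0.02 ± 0.63, or 0.52 and 0.68 without that library. ucr-2.3 was less abundant, at 30.5, 41.0 and 20.01 in WT and 13.3, 9.09, 24.7 and 21.99 in WT Late, and its log2 fold change of -0.85 ± 0.42 was the most negative of the 24 (limma adjusted p = 0.599).

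The electron carrier cytochrome c has 2 genes here. cyc-2.1, the abundant one, stood at 1347, 711 and 916 rescaled FPKM in WT and 1621, 1689, 251 and 1914 in WT Late. cyc-2.2 stood at 32.4, 41.2 and 18.6 in WT and 25.1, 24.9, 56.6 and 24.5 in WT Late, so WT Late replicate 3 was its highest library and the lowest for cyc-2.1. Their log2 fold changes were 0.16 ± 0.78 and 0.06 ± 0.41, or 0.86 and -0.23 without WT Late replicate 3.

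For complex IV the nuclear members are assembly factors, since the subunit genes are listed under other names. cox-10 and cox-15, which make heme a, had log2 fold changes of -0.63 ± 0.45 and -0.18 ± 0.41. cox-11 and cox-17, which deliver copper, had 0.44 ± 0.35 and -0.37 ± 0.42. When WT Late replicate 3 was left out, cox-15 turned to 0.17 and cox-17 was at -0.20. cox-10 was low throughout, at 6.30, 5.60 and 7.60 rescaled FPKM in WT and 4.73, 1.83, 4.24 and 6.60 in WT Late. The subunit gene cco-1, known from knockdown studies of lifespan, stood at 835, 508 and 604 in WT and 1061, 1125, 200 and 1454 in WT Late (0.27 ± 0.71, or 0.92 without WT Late replicate 3).

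In ATP synthase, atp-2, the catalytic beta subunit gene, was the most abundant nuclear member. It stood at 1671, 1427 and 1746 rescaled FPKM in WT and 1701, 1544, 391 and 2884 in WT Late. Its group means were 1615 ± 166 (SD, n = 3) and 1630 ± 1020 (SD, n = 4), and its log2 fold change was -0.29 ± 0.78 (limma adjusted p = 0.941). atp-3, which encodes the stalk subunit known as the oligomycin sensitivity protein, had a log2 fold change of -0.02 ± 0.65, atp-4 of -0.04 ± 0.82 and atp-5 of 0.34 ± 0.78. With WT Late replicate 3 left out they were 0.29 for atp-2, 0.51 for atp-3, 0.74 for atp-4 and 0.99 for atp-5. WT Late replicate 3 was the lowest library and replicate 4 the highest for each of these 4 genes.

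The median level of the 12 MtDNA mRNAs minus that of the 24 nuclear members, taken within a library so that scaling between libraries drops out, was 1.86, 1.36 and 1.43 on the log2 scale in WT. In WT Late replicates 1 to 4 it was -0.78, -0.20, 2.47 and 0.42. Replicates 1, 2 and 4 of WT Late were below every WT library and replicate 3 was above, and the difference between the group means was -1.07, or -1.74 without WT Late replicate 3. As a score over chosen genes it was not tested.

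**Figure D5:**
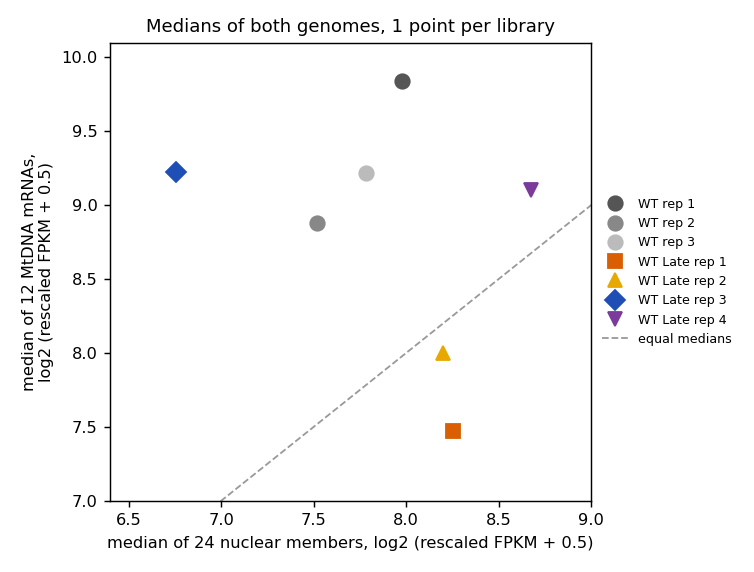
Each point is 1 library, with the median of the 24 nuclear members on the x axis and of the 12 MtDNA mRNAs on the y axis, both as log2 of rescaled FPKM plus 0.5, and a dashed line where the medians are equal. WT Late replicates 1 and 2 lie under the line, by 0.78 and 0.20, and WT Late replicate 3 lies farthest above it, by 2.47.

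Other measures moved with these patterns. The summed rescaled FPKM of the muscle markers was 10775, 5765 and 8647 in WT and 13450, 11255, 2259 and 14328 in WT Late, and that of the intestine markers was 8519, 5926 and 8829 in WT and 8781, 8579, 1750 and 19122 in WT Late. WT Late replicate 3 was thus the lowest library and replicate 4 the highest for both lists, as for most nuclear members. The sperm and neuron sums, given below, had the same lowest and highest libraries, and the germline and epidermis sums did not. The germline marker sum was 135, 255 and 98.7 in WT and 65.5, 51.3, 170 and 107 in WT Late, lowest in the 2 libraries where nduo-3 and nduo-6 were nearly unread. The sperm marker sum lay between 1725 and 3389 in WT and between 866 and 4520 in WT Late, the neuron sum between 204 and 264 and between 133 and 390, and the epidermis sum between 28.2 and 44.2 and between 52.9 and 92.4. The epidermis sums were set apart by 1 gene, since without dpy-7 they lay between 22.2 and 39.5 in WT and between 23.5 and 31.6 in WT Late. This marker, a cuticle collagen gene, was called higher (log2 fold change 2.96, limma adjusted p = 0.00471), and no other marker was called by limma with all 7 libraries, while voom also called the intestine marker cpr-1. In the fit without WT Late replicate 3, limma called cpr-1 and dpy-7 higher and the germline marker gld-1 and the sperm marker spe-11 lower. Of the 12640 genes tested in that fit, limma called 361 higher and 282 lower. The part of cell types, of ribosomal protein reads and of library composition in the MtDNA and nuclear levels was not tested.

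Genes of other mitochondrial functions, in 8 lists chosen for their roles, had 0 of 62 tested genes called by limma and 0 by voom, with 1 gene, spg-7, at an unadjusted p under 0.05 in limma and 2 in voom, where 8.89% and 9.04% of all genes tested had such a p. Their medians are given with WT Late replicate 3 and then without it. Complex II, which has no MtDNA subunit, stood at a median log2 fold change of -0.08, and then 0.56, over 5 genes, from sdha-2 at -0.71 to sdhd-1 at 0.13. Complex I subunits under other symbols had 0.21, and then 0.65, over 12 genes, from nduf-11 at 0.00 to nduf-6 at 0.47. ATP synthase genes under other symbols had 0.25, and then 0.44, over 7 genes, from the subunit b gene asb-2 at -0.30 to the inhibitor gene mai-2 at 0.39. The median over all genes tested was -0.13, and then -0.17.

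Ubiquinone synthesis had a median of 0.20, and then 0.21, over 8 genes, from coq-8 at -0.04 to the hydroxylase gene clk-1 at 0.72. The carrier list had 0.18, and then 0.53, over 4 tested of 5 genes, from the ADP/ATP carrier gene ant-1.1 at -0.16 to ucp-4 at 0.31. The list of assembly factors under other symbols had 0.21, and then 0.13, over 8 genes, from immt-2 at -0.69 to nubp-1 at 0.58. It includes immt-1, immt-2 and nubp-1, which are not assembly factors of a respiratory complex. Its other genes ran from nuaf-1 at -0.04 to nuaf-3 at 0.34. The list of genes that maintain and express mitochondrial DNA also held mtx-1, mtx-2, phb-1 and phb-2, whose main roles lie elsewhere. Its median was -0.16, turning to 0.11 without WT Late replicate 3, over 8 tested of 9 genes. It ran from the mitochondrial RNA polymerase gene rpom-1 at -0.85 (limma adjusted p = 0.719) to the single-strand binding protein gene mtss-1 at 0.72 (limma adjusted p = 0.575). Between them, polg-1 and hmg-5 stood at -0.55 and -0.22. In the same list mtx-1, mtx-2, phb-1 and phb-2 stood at -0.16, 0.24, -0.16 and 0.36. The mitochondrial unfolded protein response list had -0.42, and then -0.36, over 10 genes, from the protease gene spg-7 at -1.04 (limma adjusted p = 0.511) to ubl-5 at 0.42.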

How the data were processed

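RNAseq of 3 WT and 4 WT Late libraries was analysed. The authors extracted RNA with a Direct-zol kit, per the labels preparation was by Novogene, and the authors deposited FPKM for 46778 genes, with gene length and coordinates; the sources used here do not name the aligner, the counter or the genome build. All 36 MtDNA rows and 8 of 24 nuclear members have the coordinates of WBcel235 (Ensembl release 115), and the other nuclear members overlap theirs on the same strand. Coordinates are printed as deposited. FPKM times gene length came out as whole multiples of 1 step per library for 100% of nonzero values (within 0.02), which gave reads. The library size behind the deposited FPKM was 0.675 to 1.79 times the reads on genes. FPKM was divided by median-of-ratios factors (0.848 to 1.38).

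Genes that reached an FPKM of 0.5 in 3 or more libraries were tested with limma 3.58.1 (R 4.3.3, variance trend, pseudocount 0.5, all 7 libraries), with Benjamini-Hochberg adjustment over all genes tested. Single values were compared by two-sided exact permutation over samples. The procedure was tested on simulated data. Members and lists were chosen with earlier results of these data known. Named genes were all MtDNA mRNAs and rRNAs, the 5 largest rises and falls among nuclear members, paralogs, lifespan genes, called genes of the companion and marker lists, and the highest and lowest of each companion list; others are named to complete a complex. Alternatives were other scalings, pseudocounts, filters, no variance trend, library weights, voom, gene length trend removal, a replicate block and left-out libraries.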

Additional observations from a re-analysis of the deposited data

Results flagged for a closer look

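In 4 of 44 sets of WT Late values, 1 library lay farther from the other 3 than Dixon's 95% limit, and in each it was WT Late replicate 3. Chance puts about 1 set in 20 past this limit, and the sets share libraries. The MtDNA share of reads was 4.00% there against 0.459% to 0.654%, and MtDNA mRNA reads per nuclear member read were 4.65 against 0.375 to 0.529. ctc-1 stood at 3522 rescaled FPKM against 1284 to 1544, and the cytochrome c gene cyc-2.2 at 56.6 against 24.5 to 25.1.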

How the results depend on the processing

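Reads on genes were similar in all libraries, but genes with a read ranged from 11069 in WT Late replicate 2 to 18490 in WT Late replicate 3. How far depth, library composition or the spread between WT Late libraries limits these comparisons was not tested. For ndfl-4 and the tRNAs the reads were too few for a comparison. Over 740 alternative values for MtDNA mRNAs and rRNAs, nuclear members and cco-1, 666 kept direction and side of the threshold, 7 became called and 67 changed sign. For MtDNA mRNAs and rRNAs 259 of 265 values were negative, the exceptions being ctc-1. With library weights (0.194 for WT Late replicate 3) 1058 genes and 4 MtDNA rows were called (limma), with WT Late replicates 2 and 3 left out 841 and 2, and with no filter 51 genes. Leaving out 1 library gave 28 to 643 genes and 0 to 3 MtDNA rows called, with 28 genes when WT replicate 1 was out, 40 when WT replicate 3 was and 55 when WT Late replicate 1 was, and the highest of each count without WT Late replicate 3. The third row was the tRNA row MTCE.17. The nuclear median was 0.70 without WT Late replicates 2 and 3. The MtDNA share difference ran from -0.882 to 0.299 percentage points with 1 library left out.

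Replicate numbers did not pair the samples (same-number correlations 0.24, -0.09 and -0.18). With a replicate block, which leaves out WT Late replicate 4 in effect because it has no WT partner, 1 MtDNA row was called, nduo-3 (-6.43, limma adjusted p = 0.0485), cyc-2.1 was at -0.12, cco-1 at -0.034, nuo-1 at -0.10, ucr-2.2 at -0.34 and ctc-1 at 0.086. Quantile normalization turned atp-3 (0.078), nuo-1 (-0.10), ucr-2.2 (-0.26) and ctc-1 (0.057). Removing the gene length trend turned nuo-5 (0.12). Library weights turned nuo-5 (0.13), cox-15 (0.12), atp-2 (0.19), atp-3 (0.43), atp-4 (0.58), cyc-1 (0.26), cyc-2.2 (-0.041), isp-1 (0.48), ucr-1 (0.12) and ucr-2.1 (0.38). voom turned atp-3 (0.12), atp-4 (0.18), cyc-1 (0.059), isp-1 (0.12) and ucr-2.1 (0.074). Without WT Late replicates 2 and 3, atp-2 was at 0.53, atp-3 at 0.71, atp-4 at 0.88, cox-15 at 0.32, nuo-5 at 0.43, cyc-1 at 0.51, cyc-2.2 at -0.17, isp-1 at 0.79, ucr-1 at 0.46 and ucr-2.1 at 0.70. With 1 library left out the log2 fold change ran from -0.67 to 0.29 for atp-2, -0.30 to 0.51 for atp-3, -0.46 to 0.74 for atp-4, -0.33 to 0.17 for cox-15, -0.51 to 0.10 for nuo-5, -0.035 to 0.92 for cco-1, -0.30 to 0.32 for cyc-1, -0.12 to 0.86 for cyc-2.1, -0.25 to 0.30 for cyc-2.2, -0.48 to 0.63 for isp-1, -0.16 to 0.51 for nuo-1, -0.71 to 0.15 for ucr-1, -0.43 to 0.52 for ucr-2.1, -0.34 to 0.68 for ucr-2.2 and -0.40 to 0.20 for ctc-1. The cause of these changes was not tested.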
